A study of Mus musculus with 16 samples.

Results

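Deep intronic regions are stretches of accessible chromatin that lie inside introns, away from every annotated start of transcription. Here they were defined by position and sequence alone. Touching or overlapping peaks of 8 ATAC-seq libraries were joined into 16566 combined regions, and the centre of each was placed on the GENCODE annotation of mm10 in the order promoter, transcription termination site, exon, intron, intergenic. Of 3170 regions placed in introns, 1332 had their centre more than 10 kb from the nearest transcription start site, and 348 of these were set aside because soft-masked repeats made up over 50% of their bases. The remaining 984 regions are the members described below. For comparison there were 9329 promoter regions, 1616 intronic regions within 10 kb of a start site (near intronic) and 1061 intergenic regions more than 10 kb from one (far intergenic), chosen under the same limit on repeats except for promoters.

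ATAC-seq marks open chromatin with a transposase that inserts sequencing adapters into accessible DNA. The libraries came from splenic B cells of C57BL/6 mice, isolated by depletion of CD43-positive cells and activated in culture with LPS at 10 μg/mL and IL-4 at 20 ng/mL, and each was made from 50000 cells. The sample labels give 72 hours of activation and the series description 96 hours. All 8 libraries carried 1 copy of the CD23-Cre transgene, which acts in mature B cells, so that the 4 Brg1 fl/+ libraries came from cells with 1 intact allele of *Smarca4*, the gene of Brg1, and the 4 Brg1 fl/fl libraries from cells in which both alleles are targeted. There was no library of B cells without Cre or with 2 intact alleles, and the number of mice behind the 4 libraries of a genotype is not given in the sources used here, so p-values measure the spread between these libraries, which may be technical. *Smarca4* itself holds no member. Peaks were deposited for each library separately, without read counts, and a region that is absent from a list was not detected at the depth of that library, which is not the same as closed.

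Brg1 is the ATPase of SWI/SNF (BAF) complexes, which slide or evict nucleosomes and so expose DNA to transcription factors. Much of the regulatory DNA that such complexes keep open lies far from promoters, in intergenic DNA and in long introns, where enhancers are bound by lineage factors such as PU.1, RUNX and octamer-binding proteins and by signal-dependent factors such as AP-1 and NF-kB. Introns also hold tandem repeats, in which a short unit is copied head to tail, and sequencing reads from such arrays can match several places of the genome.

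The members were of 2 kinds in sequence, and the sequences below show both. Windows of 121 bases around the best summit are given from the RefSeq sequence of GRCm38.p6 (mm10), on the plus strand. The first 3 are members that were in the peak list of every library, and the capitals mark motif matches on either strand: SP/KLF (GGGCGG) and CRE (TGACGTCA) in *Itpkb*, the octamer (ATGCAAAT) in *Flt3*, and 2 overlapping EBF matches (TCCCNNGGG) in *Dip2b*, which was added after its values were seen.
Itpkb, intron 2, chr1:180387550-180387670: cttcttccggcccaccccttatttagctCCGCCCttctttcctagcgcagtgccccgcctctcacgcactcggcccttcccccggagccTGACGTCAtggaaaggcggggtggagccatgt
Flt3, intron 20, chr5:147339095-147339215: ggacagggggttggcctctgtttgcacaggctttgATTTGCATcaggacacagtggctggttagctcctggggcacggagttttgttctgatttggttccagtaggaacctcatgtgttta
Dip2b, intron 1, chr15:100060439-100060559: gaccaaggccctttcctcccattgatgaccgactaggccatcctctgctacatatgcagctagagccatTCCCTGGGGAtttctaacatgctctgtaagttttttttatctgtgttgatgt
The next 3 are members that were in every fl/+ list and in no fl/fl list. Capitals mark an ETS match (AGGAAGT), an EBF match and a RUNX match (TGTGGTT) in *Tox*, an ETS match that overlaps a PU.1 match (GAGGAAGT) in *Dnmt3a*, and a RUNX match in *Tcf7l2*.
Tox, intron 1, chr4:6924781-6924901: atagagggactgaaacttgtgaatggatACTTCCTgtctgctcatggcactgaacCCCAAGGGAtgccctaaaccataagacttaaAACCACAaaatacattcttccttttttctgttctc
Dnmt3a, intron 1, chr12:3834612-3834732: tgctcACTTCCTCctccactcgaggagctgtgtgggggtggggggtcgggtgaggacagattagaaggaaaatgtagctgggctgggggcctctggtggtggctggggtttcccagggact
Tcf7l2, intron 3, chr19:55768934-55769054: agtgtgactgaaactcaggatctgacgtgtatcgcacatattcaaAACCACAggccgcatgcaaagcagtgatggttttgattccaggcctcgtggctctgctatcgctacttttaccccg
The last 4 are tandem repeat arrays, with the first repeat unit of the window in capitals. *Stam2* and *Cldn14* were in all 8 lists with higher summits in fl/fl libraries, and *Dnajc3* and *Cntn4* were in every fl/fl list and in no fl/+ list.
Stam2, intron 13, unit of 54 bases, chr2:52697503-52697623: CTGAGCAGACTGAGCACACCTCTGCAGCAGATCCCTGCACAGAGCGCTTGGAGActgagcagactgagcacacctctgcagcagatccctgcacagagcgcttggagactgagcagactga
Cldn14, intron 1, unit of 33 bases, chr16:93992987-93993107: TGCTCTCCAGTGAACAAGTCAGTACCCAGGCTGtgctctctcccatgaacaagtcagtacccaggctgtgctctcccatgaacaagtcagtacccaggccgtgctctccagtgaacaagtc
Dnajc3, intron 4, unit of 36 bases, chr14:118963452-118963572: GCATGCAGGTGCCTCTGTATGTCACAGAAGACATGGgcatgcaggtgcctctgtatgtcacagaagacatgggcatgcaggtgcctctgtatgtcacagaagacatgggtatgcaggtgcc
Cntn4, intron 14, unit of 22 bases, chr6:106554659-106554779: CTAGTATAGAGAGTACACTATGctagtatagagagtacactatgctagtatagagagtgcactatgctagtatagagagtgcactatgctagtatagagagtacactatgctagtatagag

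The members were narrower and poorer in GC than promoters, and near the other distal classes. Their median width was 376 bp, against 401 bp in near intronic, 382 bp in far intergenic and 600 bp in promoter regions. Median GC content was 49.8%, against 53.6%, 50.3% and 65.1%. The ratio of observed to expected CpG dinucleotides had a median of 0.213, against 0.313, 0.278 and 0.817. A median of 19756.5 bp separated a member from the nearest start site, with a range of 10011 to 290918 bp, and 497 members lay within 20 kb and 29 beyond 100 kb. Introns of 772 genes held the members, with 889 members in protein-coding genes, 61 in lincRNA genes and 18 in antisense genes. Intron 1 of the longest transcript held 280 members (28.5%). Of the host genes, 623 held 1 member, 149 held at least 2 and 47 at least 3, and 128 members had another within 10 kb.

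Most members were found in few libraries. A single list held 540 of the 984 members (54.9%), and 21 (2.13%) were in all 8, whereas 42.7% of promoter regions, 7.05% of near intronic regions and 6.22% of far intergenic regions were in all 8. Within each list the members ranked low, with a median rank by q between 75.6% and 86.3% of the way down the list. The rule for members has 2 thresholds, and on both sides of the distance limit detection was alike: the 72 regions at 9 to 10 kb were found in 38.2% (mean of fl/+ libraries) and 16.3% (fl/fl), and the 83 members at 10 to 11 kb in 33.4% and 16.3%. Around the limit on repeats, the 15 members with 45 to 50% soft-masked bases were found in 30.0% and 5%, and the 12 regions just above it in 29.2% and 25.0%.

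The number of members differed widely between lists. fl/+ libraries 1, 2, 3 and 4 held 757, 393, 93 and 131 members, and fl/fl libraries 1, 2, 3 and 4 held 198, 81, 166 and 147. Library 1 of fl/+ stood apart, with 14614 peaks where the other 7 lists had 6271 to 11283, and 377 members were found in it alone. The background derived from the fold and −log10 p of the peaks was 6.47, 4.14, 2.76 and 3.60 fragments per kb in the fl/+ libraries and 6.89, 3.39, 6.27 and 5.95 in the fl/fl libraries. Open promoters of B cell genes numbered 2 to 5 of 10 per library, with *Ms4a1* (CD20) and *Pax5* in all 8 lists and *Cd79b*, *Cd22*, *Blk* and *Bank1* among those in none. Of 8 T cell promoters, 0 to 2 had a peak in fl/+ libraries and 1 in each fl/fl library, which was *Cd247* in each case, and none of 6 myeloid promoters had one in any library. The part of other cells in the results below was not tested.

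As a whole, the members did not separate the genotypes. A mean of 34.9% ± 31.1 (SD, n = 4) of the members was detected in fl/+ libraries and 15% ± 5.02 (SD, n = 4) in fl/fl libraries, and the difference of -19.9 points lay inside the range of the libraries (exact permutation test, two-sided, 70 assignments, p = 0.371, smallest possible p 0.0286). Leaving out fl/+ library 1 brought it to -5.86 points. Subtracting the percentage of promoter regions detected in the same library gave -40.0 and -50.4 points, a difference of -10.4 (exact permutation test, p = 0.171, adjusted p = 0.257 over 3 classes). Against near intronic regions the difference was 1.36 points (exact permutation test, p = 0.314, adjusted p = 0.314), and against far intergenic regions 1.39 points (exact permutation test, p = 0.171, adjusted p = 0.257). Both of these small differences changed sign when the lists were cut to the same number of peaks, to -6.61 and -2.36 points. The share of peaks that lay in members was 2.98% ± 1.74 (SD, n = 4) in fl/+ lists and 1.79% ± 0.357 (SD, n = 4) in fl/fl lists (exact permutation test, p = 0.343).

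These totals joined 2 kinds of members that went in opposite directions. Each region was cut into words of 24 bases. A region was called multicopy when over 50% of its words occur more than once in the nuclear chromosomes of mm10, and single-copy otherwise. Copies in the mitochondrial genome were not counted. They concerned 1 member, in *AC115970.1*, with 55% of its words, which was thus called single-copy. The split uses the reference sequence and no peak value, but it was made after the data were seen, so values by kind are descriptions without a test. Of the members, 735 were single-copy and 249 multicopy, and 643 had at most 10% of such words and 172 over 90%. Between these, 67 had 10 to 25%, 25 had 25 to 50%, 27 had 50 to 75% and 50 had 75 to 90%. Members were multicopy in 25.3% of cases, near intronic regions in 14.2%, far intergenic regions in 18.9% and promoters in 2.97%.

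**Figure D1:**
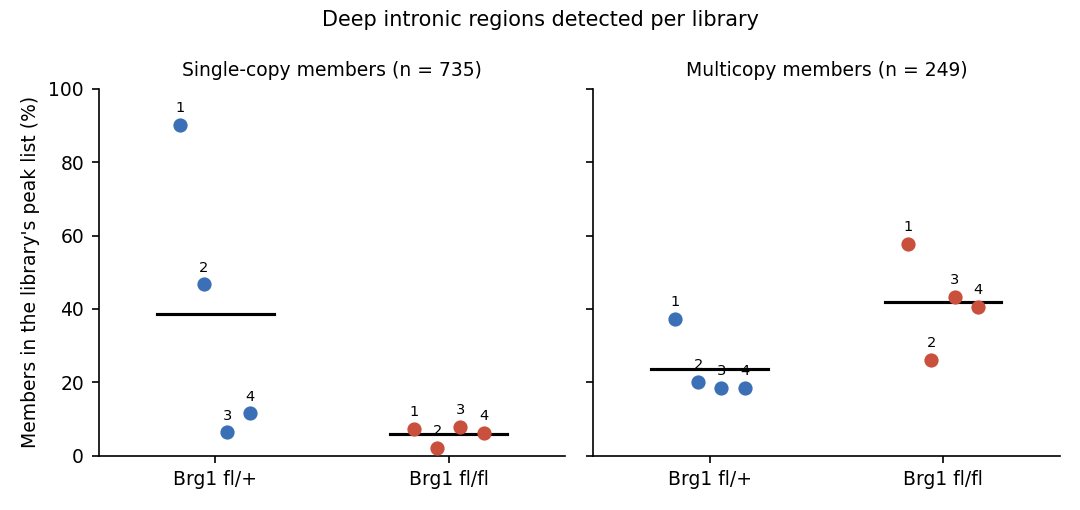
Percentage of the 735 single-copy and the 249 multicopy members with a peak in each of the 8 libraries (y axis), by genotype, each point 1 library with its replicate number and each black line the mean of 4. Single-copy members ran from 6.39% to 90.3% in fl/+ and from 2.18% to 7.89% in fl/fl libraries, and multicopy members from 18.5% to 37.3% and from 26.1% to 57.8%.

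Single-copy members were found mainly in fl/+ lists. Their detection was 90.3%, 46.7%, 6.39% and 11.6% in fl/+ libraries 1 to 4 and 7.35%, 2.18%, 7.89% and 6.26% in fl/fl libraries 1 to 4. The groups overlapped only through fl/+ library 3, the one with the lowest background. Of all members, 740 (75.2%) were in fewer fl/fl than fl/+ lists and 175 (17.8%) in more, against 47.2% and 16.7% of all regions, 75.2% and 14.8% of far intergenic regions and 73.5% and 13.4% of near intronic regions. Among the 735 single-copy members, 693 (94.3%) were in fewer fl/fl lists and 12 (1.63%) in more, and the same held for 51.5% and 9.09% of all single-copy regions. Single-copy far intergenic regions came nearer, with 88.6% in fewer and 3.95% in more, as did single-copy near intronic regions, with 81.5% and 5.7%. Of the 735 members, 363 had a peak in fl/+ library 1 alone, which places them in fewer fl/fl lists by construction. The same applied to 2972 of the 13934 single-copy regions of any class. Without fl/+ library 1, 372 single-copy members were left, and a smaller share of the fl/fl lists than of the other 3 fl/+ lists held 333 of them (89.5%) and a larger share 30 (8.06%), whereas all single-copy regions gave 38.7% and 21.9%. This comparison still leans on fl/+ library 2, with 46.7% of single-copy members detected against 6.39% and 11.6% in fl/+ libraries 3 and 4.

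Multicopy members showed the opposite. They were detected at 37.3%, 20.1%, 18.5% and 18.5% in fl/+ libraries 1 to 4 and at 57.8%, 26.1%, 43.4% and 40.6% in fl/fl libraries 1 to 4. Only fl/+ library 1 reached into the fl/fl range. Of the 249, 163 (65.5%) were in more fl/fl lists and 47 (18.9%) in fewer. Among all multicopy regions, 57.6% were in more and 23.8% in fewer, so the members lay near the background. Multicopy peaks made up 12.7% to 50.5% of the member peaks of an fl/+ list and 65.3% to 80.7% of an fl/fl list.

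**Figure D2:**
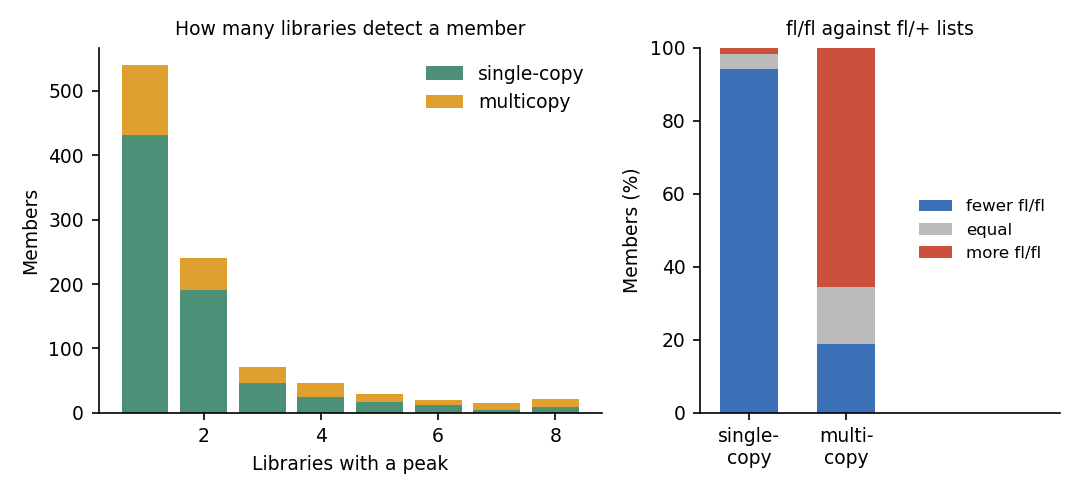
Left, number of members (y axis) found in 1 to 8 libraries (x axis), with single-copy and multicopy members stacked; 431 single-copy and 109 multicopy members were in a single library. Right, percentage of single-copy and of multicopy members in fewer, equally many or more fl/fl than fl/+ lists, with 94.3% of single-copy members in fewer and 65.5% of multicopy members in more.

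To set list length aside, the best 5369 single-copy peaks by q were taken from every list, the number in the shortest. Single-copy members then numbered 33, 34, 37 and 33 in fl/+ libraries 1 to 4 and 12, 16, 14 and 13 in fl/fl libraries 1 to 4. Every fl/+ library was above every fl/fl library, with means of 34.2 ± 1.89 and 13.8 ± 1.71 (SD, n = 4 each), a ratio of 2.49. Near intronic regions numbered 146 ± 8.74 and 136 ± 12.6 (SD, n = 4 each, ratio 1.08), and the groups overlapped. Far intergenic regions lay between, with 74.0 ± 3.56 and 56.2 ± 6.50 (SD, n = 4 each, ratio 1.32), and promoter regions numbered 4748.5 ± 44.5 and 4802.5 ± 35 (ratio 0.989). On the log2 scale, the ratio of members to near intronic regions was lower by 1.21 in fl/fl lists, that of members to far intergenic regions differed by -0.92, and that of members to promoters by -1.34, and none of the 3 ratios overlapped between genotypes. The counts in fl/+ lists stayed above those in fl/fl lists at a −log10 q of 5 or more (19, 21, 24 and 25 against 10, 11, 10 and 12). At a −log10 q of 10 or more they overlapped (9, 5, 11 and 7 against 5, 7, 5 and 7). These lists were again cut to equal length, at 4771 and 3365 single-copy peaks, so a stricter q came with shorter lists. The genotypes were thus apart only with weaker peaks included.

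**Figure D3:**
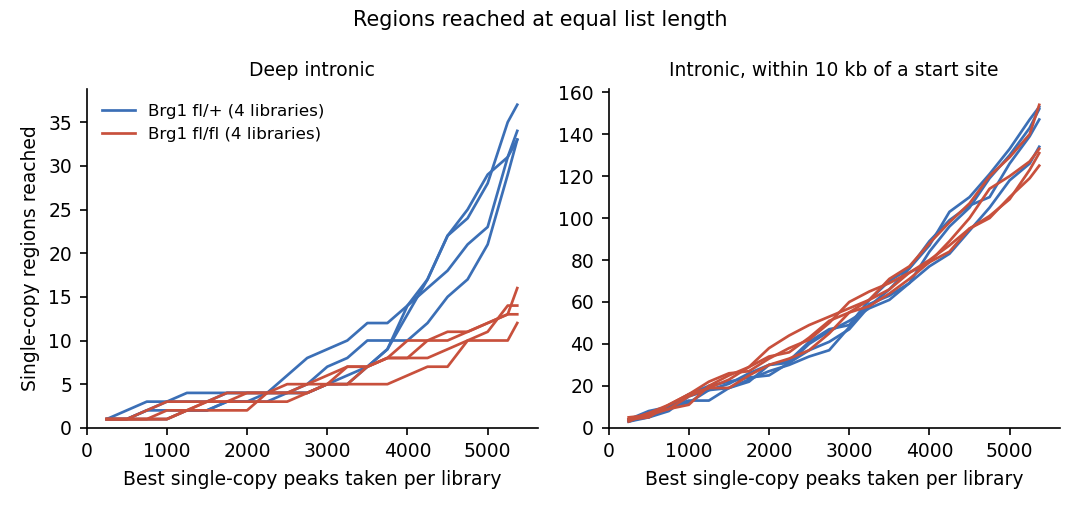
Number of single-copy deep intronic (left) and near intronic (right) regions reached (y axis) as more of the best single-copy peaks are taken from each library (x axis), with 1 line per library. The deep intronic lines of the genotypes part as the weaker peaks come in and end at 33 to 37 in fl/+ and 12 to 16 in fl/fl libraries, while the near intronic lines run together and end at 134 to 153 and 125 to 154.

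Across these lists of equal length, 71 single-copy members appeared at least once, 51 of them in fewer fl/fl lists, 9 in more and 11 in equally many. Neither these counts nor those in the next sentence are given for all single-copy regions or for the other classes. They therefore stand without a background share. Members in every fl/+ list and in no fl/fl list at this length numbered 4, in *Fam107b*, *Glipr2*, *Itpr1* and *Maml3*, and 0 showed the reverse. These genes and the values that follow were picked after the data were seen. *Itpr1* encodes the IP3 receptor that releases calcium from the endoplasmic reticulum, and its member in intron 61 held 55, 38, 15 and 26 fragments at the summit in fl/+ libraries 1 to 4 and 19, 15 and 18 in fl/fl libraries 1, 3 and 4, with no peak in library 2. *Maml3*, a coactivator of Notch signalling, had 41, 28, 22 and 24 fragments in fl/+ and 15, 12 and 10 in fl/fl libraries 1, 3 and 4. In *Fam107b* the values were 48, 37, 12 and 25 in fl/+ and 11 and 13 in fl/fl libraries 1 and 4. The last 3 members were thus still seen in some fl/fl lists as deposited, at lower rank.

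In the lists as deposited, 6 of the 984 members were in all fl/+ lists and in no fl/fl list, where 67 of all regions (0.404%) were. So were 18 of 1616 near intronic and 11 of 1061 far intergenic regions, and the members did not exceed these classes. All 6 were single-copy, as were 61 of the 67. Number of fragments at the summit is given in the order of fl/+ libraries 1 to 4. *Glipr2* had 64, 42, 29 and 25, *Ksr1*, which encodes a scaffold of the Ras and MAP kinase pathway, had 31, 25, 15 and 19, and *Tcf7l2*, a transcription factor of the Wnt pathway, had 24, 18, 10 and 12. *Dnmt3a*, a *de novo* DNA methyltransferase, had 21, 19, 10 and 12, and *Pvt1*, a long non-coding RNA gene next to *Myc*, had 17, 13, 8 and 17. The sixth, outside the rule for named regions and added after its values were seen, was in *Tox*, a high mobility group box factor, with 29, 20, 6 and 10. The number of such members rose to 31 without fl/+ library 3 and to 12 without library 4.

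The reverse pattern, all fl/fl lists and no fl/+ list, was found in 4 members and in 28 of all regions (0.169%), 27 of them multicopy. It was found in 1 near intronic region and 2 far intergenic regions. All 4 members were tandem arrays. In the order of fl/fl libraries 1 to 4, *Dnajc3*, a co-chaperone of the endoplasmic reticulum, had 15, 9, 12 and 12 fragments at the summit, and *Slc38a9*, a lysosomal arginine sensor, had 12, 8, 11 and 10. *Prune2* had 16, 6, 13 and 12, and *Cntn4*, a neuronal adhesion molecule, had 9, 6, 10 and 11. Their repeat units were 36, 26, 13 and 22 bases long. These were low peaks, at ranks of 87.3% to 99.5% in the list where each ranked worst, and 9 members met the condition without fl/fl library 2.

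Tandem arrays made up most of the multicopy members. In 219 of the 249, over 50% of the words recurred within the region itself, with a median unit of 34 bases (quartiles 26 and 44.5) and a median of 14.4 units, and 175 of them held no soft-masked base, so that the limit on repeats did not remove them. The arrays were detected at 34.7%, 17.4%, 17.4% and 16.9% in fl/+ libraries 1 to 4 and at 58.4%, 24.2%, 44.7% and 41.1% in fl/fl libraries 1 to 4, and 152 were in more fl/fl lists and 38 in fewer. Arrays of other classes gave means of 28.1% in fl/+ and 46.0% in fl/fl libraries for 183 near intronic regions, and of 17.4% and 43.6% for 128 far intergenic regions. The 23 arrays at promoters gave 54.3% and 53.3%. Few arrays were copies of each other: 14 of the 249 multicopy members shared at least 50 words with another member. The 30 multicopy members that were not arrays were detected at 38.3% and 40.8%. One member of this kind, in *Filip1l*, shared words with those in *Jarid2* and *Arhgap21*, and all 3 were in every list. How reads that match several places were handled is not given in the sources used here, and its part in the values of the arrays was not tested.

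For regions in all 8 lists the height of the summit could be compared. The number of fragments at the summit was recovered from the deposited fold and −log10 p, brought to the median region of each library on the log2 scale, and tested with limma over the 4566 regions of any class. Of the 21 members in every list, 19 had recovered fragments, and 1 was lower and 6 were higher in fl/fl libraries at an adjusted p below 0.05, against 160 (3.5%) and 421 (9.22%) of all regions tested. With each library left out the calls over all regions ranged from 87 to 133 lower and from 278 to 459 higher. The lowest of each came without fl/fl library 1, and the lower calls also fell by over 1.5 times, to 91, 96 and 99, without fl/+ library 2, fl/+ library 4 and fl/fl library 3. The median log2 difference was 0.36 among the members and 0.06 among all regions. Under a scaling to the background of each library the median of all regions moved to -0.81, and 11 members were lower and 2 higher.

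The member that was lower lay in intron 20 of *Flt3*, the receptor tyrosine kinase of early lymphoid and myeloid progenitors. It had 74, 42, 21 and 31 fragments at the summit in fl/+ libraries 1 to 4 and 20, 14, 17 and 29 in fl/fl libraries 1 to 4. Once scaled, the genotypes did not overlap. The log2 difference was -0.76 (SE 0.19, limma adjusted p = 0.00651), and -1.63 under the background scaling. Its window holds the octamer match printed above, and 2 further single-copy members lay in the same gene.

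Of the 6 members that were higher, 4 were tandem arrays. By kind, 5 of 10 multicopy members tested were higher, with a median log2 difference of 0.76, and so were 125 of 243 multicopy regions of any class, with a median of 0.72, so the members lay at the background of multicopy regions. The array in *Cldn14*, a claudin of tight junctions, had 30, 15, 11 and 18 fragments in fl/+ and 51, 26, 54 and 44 in fl/fl libraries, a log2 difference of 1.49 (SE 0.19, limma adjusted p = 3.34e-07). *Dlgap2*, which encodes a postsynaptic scaffold protein, had 32, 26, 19 and 21 against 64, 35, 63 and 57, a log2 difference of 1.36 (SE 0.17, limma adjusted p = 4.42e-07). In *Stam2*, an endosomal sorting adaptor, 31, 27, 23 and 30 fragments stood against 65, 36, 59 and 70, a log2 difference of 1.22 (SE 0.19, limma adjusted p = 1.6e-05). Scaled values did not overlap between genotypes in these 3 arrays. *Zranb3*, a DNA translocase that acts at stalled replication forks, had 9, 10, 9 and 18 against 23, 15, 28 and 25, a log2 difference of 1.22 (SE 0.29, limma adjusted p = 0.00451), with scaled values that overlapped. Under the background scaling, *Cldn14* and *Dlgap2* were still higher, by 0.62 and 0.48, and *Stam2* and *Zranb3* were at 0.35 each, past no threshold (limma adjusted p = 0.0984 and 0.212). With the deposited fold in place of the fragments, *Stam2* was not past the threshold either (limma adjusted p = 0.078), and the other 3 arrays were.

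The other 2 did not keep their direction. *AC115970.1*, of whose words 55% also occur in the mitochondrial genome, had 189, 124, 84 and 78 fragments in fl/+ and 167, 80, 178 and 156 in fl/fl libraries, a log2 difference of 0.52 (SE 0.12, limma adjusted p = 0.00392) that turned to -0.35, lower past the threshold, under the background scaling (limma adjusted p = 0.0148) and had an adjusted p of 0.051 in limma with the deposited fold. *Gphn*, which encodes the scaffold protein gephyrin, differed by 0.36 (SE 0.12, limma adjusted p = 0.0475), turned to -0.52 under the background scaling (limma adjusted p = 0.0015), and was past the threshold neither with the deposited fold (limma adjusted p = 0.212) nor with pairs of libraries averaged (0.0958).

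**Figure D4:**
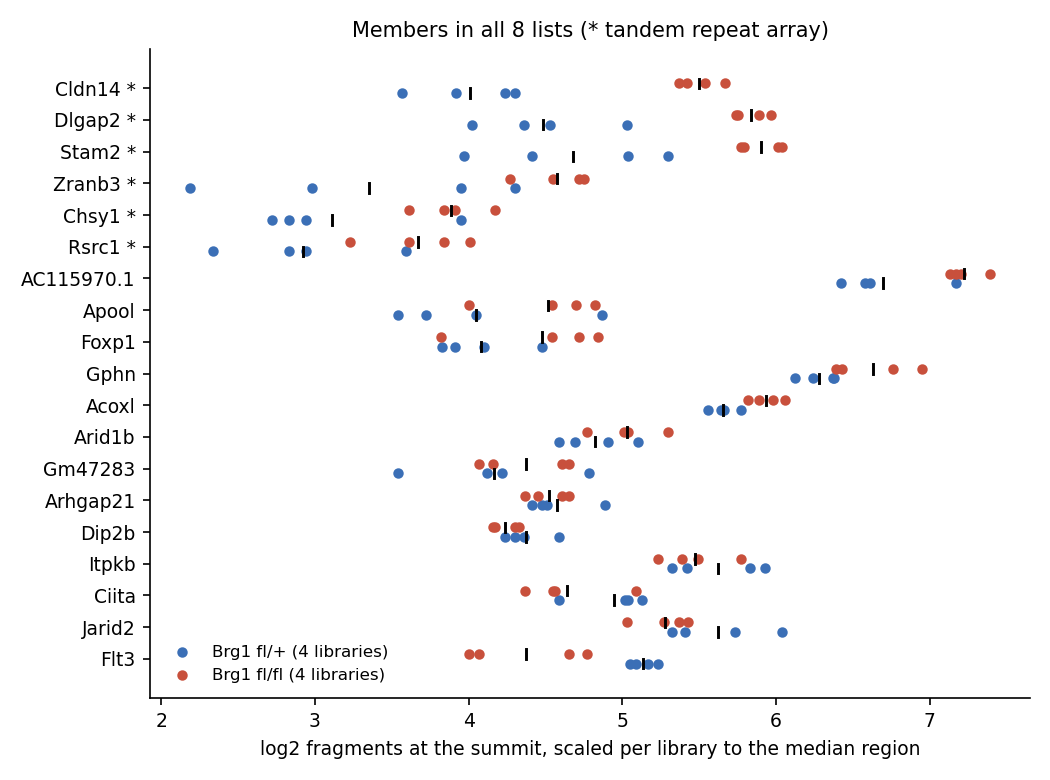
Fragments at the summit on the log2 scale, brought to the median region of each library (x axis), for the 19 members in all 8 lists with recovered fragments (y axis, by host gene, an asterisk marking tandem arrays), each point 1 library and each tick the mean of 4. The 6 arrays sit at the top, with higher means in fl/fl libraries, although *Chsy1* and *Rsrc1* turn to -0.10 and -0.12 under the background scaling, and *Flt3* at the bottom is the member at a log2 difference of -0.76.

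The remaining 7 single-copy members in all 8 lists were not past the threshold at this depth. Of these, *Ciita*, *Dip2b* and *Apool* are outside the rule for named regions and were added after their values were seen. *Itpkb*, an inositol trisphosphate kinase that tunes calcium signals in lymphocytes, had 79, 77, 25 and 52 fragments in fl/+ and 50, 25, 40 and 58 in fl/fl libraries, a log2 difference of -0.16 (limma adjusted p = 0.544). The member in *Ciita*, the transactivator of MHC class II genes, had 69, 41, 14 and 30 against 28, 19, 22 and 25 (-0.30, limma adjusted p = 0.315). *Dip2b* had 39, 24, 12 and 22 against 24, 10, 21 and 19 (-0.14, limma adjusted p = 0.712). For *Acoxl* the values were 93, 69, 29 and 46 against 75, 33, 60 and 71 (0.28, limma adjusted p = 0.138). *Arid1b*, a subunit of SWI/SNF complexes, had 68, 38, 15 and 22 against 47, 18, 29 and 35 (0.21, limma adjusted p = 0.474), and *Foxp1*, a forkhead factor of B cell development, 44, 19, 10 and 13 against 34, 13, 15 and 28 (0.40, limma adjusted p = 0.26). *Apool* had 23, 21, 17 and 12 against 31, 13, 30 and 17 (0.47, limma adjusted p = 0.203). Scaled values of the genotypes overlapped in 6 of these 7 members and did not in *Acoxl*. Under the background scaling all 7 were below 0, from -1.17 in *Ciita* to -0.40 in *Apool*, against the median of -0.81 for all regions. Of the multicopy members that are not arrays, *Jarid2* differed by -0.35 (limma adjusted p = 0.13) and *Arhgap21* by -0.05 (limma adjusted p = 0.887). *Filip1l* and *Mid1*, whose fragments could not be recovered in every library, had deposited folds of 22.3 to 26 and of 10.7 to 16.4 over the local background.

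The genes with the most members were long and of mixed function. *Arid1b* held 7 members, 6 of them single-copy, and *Rad51b*, a gene of homologous recombination, held 5. *Alk*, *Atxn1*, *Fgfr2*, *Hivep3*, *Man1a* and *Plekha2* held 4 single-copy members each, and *Ctif* and *Fbxl17* 3 single-copy members and 1 multicopy member each. *Prkca*, with 3 single-copy and 1 multicopy, and *Vav2*, with 2 of each, also held 4 members and are added here. The count for *Fgfr2* rests on an annotated span of 2960900 bp, with members as far apart as chr7:130834363 and chr7:132551742. Apart from the member in all 8 lists, the single-copy members of *Arid1b* were in 1 to 3 fl/+ lists, and 1 of them was in a single fl/fl list. Its multicopy member went the other way, with 10 and 7 fragments in fl/fl libraries 1 and 2 and no peak in an fl/+ list. *Plekha2*, which encodes a phosphoinositide-binding adaptor of B cells, was the shortest of these hosts, with 4 members in 63233 bp.

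Single-copy members lay in several genes of B cell signalling and transcription. Counts are set against the length of intron that lay over 10 kb from a start site and could have held a member. All protein-coding genes held 662 single-copy and 227 multicopy members, 1.27 and 0.435 per Mb, and 517 of the 8830 genes with such introns (5.86%) held a single-copy member. B cell receptor signalling genes held 25 single-copy members in 13 of 26 genes, or 11.8 per Mb, and 2 multicopy members. B cell transcription factors held 19 in 14 of 31 genes, or 6.23 per Mb, and 1 multicopy member. Of these single-copy members, 25 of 25 and 18 of 19 were in fewer fl/fl lists, and the exception was the *Foxp1* member in all 8 lists. This direction was shared by 94.3% of all single-copy members.

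Within the B cell receptor list, chosen after their values were seen, the adaptor gene *Blnk* and the phosphatase gene *Inpp5d* held 3 members each. The strongest in *Blnk* had 30 and 23 fragments in fl/+ libraries 1 and 2 and 14 in fl/fl library 1. *Ptprc*, the CD45 phosphatase, had 37 and 18 fragments in fl/+ libraries 1 and 2, with no peak elsewhere. *Vav1*, a guanine nucleotide exchange factor, had 20, 10 and 5 in fl/+ libraries 1 to 3. These examples rest on the deeper fl/+ libraries. Of the transcription factors, *Batf* had 29, 17 and 13 and *Zbtb20* 14, 18 and 9 in fl/+ libraries 1, 2 and 4, and the second *Foxp1* member 47, 27 and 18 in the same libraries against 11 and 17 in fl/fl libraries 1 and 3. *Foxo1*, a forkhead factor downstream of PI3 kinase, held a tandem array with a unit of 43 bases, which had 11 fragments in fl/+ library 1 and 18, 12, 22 and 13 in fl/fl libraries 1 to 4.

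Other lists held fewer members. NF-kB and CD40 genes had 2 single-copy members in only 148 kb of such intron (13.6 per Mb), in *Nfkb1* and *Rel*, and the TLR4 and IL-4 response genes had 2 in *Cd180* and *Jak1* (5.23 per Mb). Cell cycle genes held 2, in *Cdk6* and *Rbl2* (5.74 per Mb), and genes of adhesion, homing and activation held 6 in 5 of 18 genes (3.07 per Mb). SWI/SNF and corepressor genes held 8 (4.89 per Mb), 6 of them in *Arid1b*. T cell genes held 3 (2.73 per Mb), 2 in *Tox* and 1 in *Prkcq*, and myeloid genes none in 195 kb. The 26 neuronal genes offered 25177.2 kb and held no single-copy member but 3 multicopy members, in *Cntn4*, *Grin2a* and *Sox5*. Each of those 3 was found in fl/fl lists alone, in 4 lists for *Cntn4* and in 1 for each of the others.

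Motifs of B cell factors were counted at the summits and in DNA 2 kb away. In windows of 201 bp around the summit, searched on both strands, the ETS motif was in 15.6% of single-copy members, in 5.17% of windows 2 kb from the same summits and in 7.93% of all regions. For AP-1 (TGANTCA) the shares were 15%, 5.85% and 4.84%, and for RUNX 11.8%, 5.71% and 3.98%. The PU.1 motif, which contains the ETS motif, was in 5.85%, 1.09% and 2.98%. The octamer was in 5.58%, 1.36% and 1.97%, NF-kB (GGGANTTTC) in 4.35%, 0.952% and 1.37%, and EBF in 6.67%, 1.63% and 7.12%. Several other motifs were also more frequent at the summits than 2 kb away. The E-box CACGTG was in 6.8%, 1.77% and 7.19%, and BACH/MAF (GCTGANTCA) in 2.18%, 0.68% and 0.872%. MEF2 (CTAAAAATA) was in 1.5%, 0.544% and 0.345%, and CTCF (CAGGGGGC) in 1.63%, 0.68% and 3.36%. The STAT, FOXO and E2F motifs were little or no more frequent at the summits. STAT (TTCNNNGAA) was in 6.94%, 5.58% and 3.92%, FOXO (TGTTTAC) in 2.31%, 2.86% and 1.42%, and E2F (TTCCCGC) in 0.272%, 0.68% and 4.91%. At least 1 of the ETS, RUNX, AP-1, octamer, NF-kB and EBF motifs was in 45.4% of single-copy members, in 19.3% of the windows 2 kb away and in 17.6% of promoters. The single-copy regions of the most similar classes had like shares for several motifs: ETS was in 14.9% of near intronic and 16.2% of far intergenic regions, AP-1 in 10.7% and 15.2%, RUNX in 8.44% and 10.2%, and EBF in 8.07% and 8.02%. NF-kB, in 1.95% and 2.79%, was less frequent there than in the members. The octamer was in 2.88% of near intronic regions and in 4.88% of far intergenic regions, the latter close to the 5.58% of the members. The E-box motifs CAGGTG and CAGCTG were in 17.8% and 16.5% of single-copy members, in 13.5% and 8.98% of the windows 2 kb away and in 13.3% and 11.3% of all regions. The shares are descriptions without a test.

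Multicopy members mostly lacked these motifs, and promoters had others. The same group of motifs was in 6.02% of multicopy members, with ETS in 0.803%, RUNX in 1.20%, AP-1 in 2.01% and no PU.1 or NF-kB match. SP/KLF was in 68.0% of promoters, 10.3% of single-copy members and 47.9% of all regions, and CRE in 3.60%, 0.952% and 2.39%. Both were also more frequent at the summits of single-copy members than 2 kb away, where they were in 2.86% and 0.272% of windows. With the best 83 member peaks of each library, the number in the shortest list of member peaks, 0 of 20 motifs differed between genotypes after adjustment (two-sided exact permutation tests, smallest adjusted p = 0.245), and 2 had an unadjusted p under 0.05. These were ETS, in 16.3% ± 3.19 of the peaks in fl/+ and 6.93% ± 3.98 in fl/fl libraries (SD, n = 4 each, exact permutation test, p = 0.0286), and RUNX, in 12.3% ± 2.28 and 5.42% ± 2.87 (SD, n = 4 each, exact permutation test, p = 0.0286). These peaks mix both kinds of members, and multicopy peaks, which rarely hold the motifs, made up more of the member peaks in fl/fl lists. The part of this mix in the ETS and RUNX differences was not tested. In the best 16 single-copy member peaks of each library, a setting added after the data were seen and given without a test, ETS was in 18.8% ± 5.10 and 14.1% ± 5.98 and RUNX in 12.5% ± 8.84 and 7.81% ± 5.98, and both overlapped between genotypes. STAT, 1 of the 20 motifs and in 3.92% of all regions, did not overlap there, with 3.12% ± 3.61 in fl/+ and 14.1% ± 3.12 in fl/fl libraries. These shares rest on few peaks, at 0 to 6.25% of 16 peaks in fl/+ and 12.5% to 18.8% in fl/fl libraries. In the best 83 member peaks of both kinds STAT went the other way, with means of 4.22% in fl/+ and 3.61% in fl/fl libraries.

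**Figure D5:**
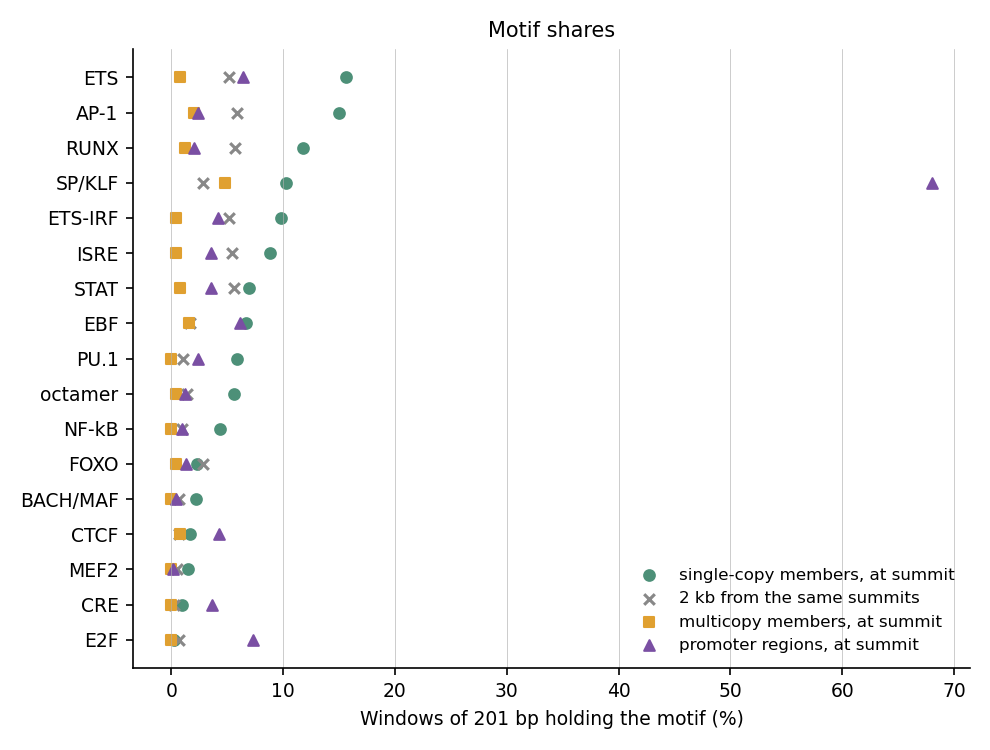
Percentage of windows of 201 bp that hold each of 17 motifs (x axis; the E-box motifs are not drawn) at the summits of single-copy members, 2 kb from the same summits, at the summits of multicopy members and at those of promoter regions. Of the motifs drawn, ETS, AP-1 and RUNX lead among single-copy members at 15.6%, 15% and 11.8%, and SP/KLF stands at 68.0% of promoters.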

How the data were processed

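The authors mapped paired-end ATAC-seq reads with Bowtie2 (mm10), and MACS2 peaks were called by library, 8 in all. Options, versions and the handling of duplicate and multiply mapping reads are not given in the sources used here. The deposited lists hold, for each peak, the fold over the local background, which is a ratio, and deposited values of −log10 p and of −log10 q (the latter 1.31 or more). The lists give no read counts, so depth is known only through fragments solved from fold and −log10 p to within 0.002 of the deposited value, which succeeded for at least 99.7% of the peaks of each list. 8 RNA-seq libraries were not analysed here.

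Libraries were grouped by the genotype in the labels. Peaks were joined, placed on GENCODE M21 (promoter, 1000 bp upstream to 100 bp downstream of a start site; termination site, 100 bp upstream to 1000 bp downstream) and counted as detected from 1 bp of overlap. The host is the gene whose intron holds the centre, protein-coding genes first. Words of 24 bases were taken at every 4th base and counted in the nuclear chromosomes, with the mitochondrial genome counted apart. Detection was compared with two-sided exact permutation tests over 70 assignments, and summit levels with limma at a Benjamini-Hochberg adjusted p of 0.05. With 4 libraries a group, the smallest p is 0.0286. Precision is limited by the 4 libraries and by their depth.

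Regions named are the 10 members in all 8 lists whose worst rank by q was best, the 5 of each direction in all lists of one genotype and none of the other, up to 10 of each direction past the limma threshold, the 10 hosts with the most members, and genes of the lists with a member in all 8 lists; others are said to be added. Members, gene lists and motifs were chosen with earlier results of these data known, and the split by copies and by tandem arrays was added after the data were seen. Alternatives were stricter q, equal numbers of peaks, 50% coverage, joining within 500 bp, at least 2 libraries, protein-coding start sites, limits of 5 and 20 kb, limits on soft-masked bases, copies at 25% or 75% of words, other scalings, a motif window of 250 bp, each library left out and the replicate number as a block.

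On simulated data, 490 of 500 summits and 1195 of 1195 words were recovered, and of 200 planted 2-fold regions 184 were called in the comparison of Brg1 fl/fl with Brg1 fl/+, with 10 of 4366 others. The work used R 4.3.3 with limma 3.58.1, samtools 1.23.1, and Python 3.11.15 with scipy 1.17.1, numpy 2.4.6, numba 0.67.0, pandas 2.3.3, matplotlib 3.10.9 and pysam 0.24.0.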

Additional observations from a re-analysis of the deposited data

Results flagged for a closer look

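In 4 of 30 groups of 4 libraries looked at, 1 library lay far from the other 3 relative to the range of its group, where chance gives about 1 in 20. Detection of multicopy members was 37.3% in Brg1 fl/+ library 1 and 18.5% to 20.1% in the others, and the median width of member peaks was 351 bp in the same library and 301 to 306 bp in the others. Detection of members minus that of near intronic regions was -7.77 points in Brg1 fl/fl library 4 and -5.43 to -5.10 in the others of that genotype. Single-copy promoter regions in lists of equal length numbered 4750 in Brg1 fl/fl library 2 and 4819 to 4822 in the others. Brg1 fl/+ library 1 had the longest list, and Brg1 fl/fl library 2 the shortest.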

How the results depend on the processing

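Of 208 values under alternatives, 171 kept their direction and side of the threshold, or stayed within 1.5 times for counts, 17 counts moved further, 16 changed sign, and 4, all under the settings by copies added after the data were seen, kept their direction and are given below without a test; the causes were not tested except where the alternative's construction shows them. Detection of members minus near intronic regions was -1.37 points at a −log10 q of at least 5, -5.98 at 10, -6.61 with the same number of peaks, -1.02 for regions in at least 2 libraries, -0.058 with protein-coding start sites, -5.82 in single-copy regions and -25.7 with the same number of single-copy peaks. Minus far intergenic regions it was -2.29 at a −log10 q of at least 10, -2.36 with the same number of peaks, -0.163 with protein-coding start sites, -4.38 with no limit on soft-masked bases, -2.68 in single-copy regions and -15.2 with the same number of single-copy peaks. The single-copy and multicopy settings were chosen after seeing the data and carry no p here. In multicopy regions the difference was 18.4 points for detection, 31.6 minus promoters and 1.71 for the share of peaks. With the same number of single-copy peaks these were -28.8, -29.6 and -0.387, and in single-copy regions the share of peaks differed by -1.98.

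Members in all Brg1 fl/+ and no Brg1 fl/fl lists numbered 3 with 50% of a region covered, 16 with protein-coding start sites, 10 beyond 5 kb and 0 among multicopy regions, and 6 to 31 with each library left out. The reverse numbered 0 at a −log10 q of at least 5 or 10, 1 with the same number of peaks, 2 beyond 20 kb, 8 with no limit on soft-masked bases, 0 among single-copy regions, 0 with the same number of single-copy peaks, and 4 to 9 with each library left out. Summits called higher numbered 3 with the deposited fold and 2 scaled to the background, 5 to 8 with each library left out, and summits called lower 11 scaled to the background and 1 in each case with a library left out. For all regions, those called higher and lower numbered 152 and 99 with the deposited fold, 16 and 4153 scaled to the background, and 279 and 94 with pairs averaged. With each library left out, detection differed by -28.4 to -5.86 points, by -13.8 to -3.77 minus promoters, by 0.708 to 2.06 minus near intronic regions and by 0.863 to 1.96 minus far intergenic regions, and the share of peaks by -1.69 to -0.447.

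The replicate numbers did not pair the libraries: deviations of same-numbered libraries correlated at -0.0609 to -0.0079 over 4566 regions. With the number as a block, detection differed by -19.9 points (exact permutation test within 4 pairs, p = 0.5, smallest possible p 0.125), and 5 members were called higher and 1 lower with limma. Pairs of libraries of 1 genotype had a dispersion of 0.756 to 1.19 relative to counting error at promoters. It was 0.8 to 0.862 in Brg1 fl/fl pairs. Brg1 fl/+ libraries 1 and 2 had 0.884, libraries 3 and 4 had 0.756, and the other Brg1 fl/+ pairs 0.881 to 1.19. Pairs from 1 mouse cannot be told apart from separate mice by these values, and the spread behind the limma p-values may be technical. Depth limits all counts of members, since most were near the end of a list.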
